A study of Ovis aries with 7 samples.

Results

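MOG, MOBP, CLDN11, OPALIN, UGT8, ERMN and ST18, 7 genes of myelin and the oligodendrocyte lineage, were followed across the nuclei of sheep striatum. They were taken by gene symbol, and each symbol matched 1 of the 26479 features measured, so the set held 7 features. Single-nucleus RNA sequencing had been done on striatum from 12 sheep aged 5 years, in 7 droplet libraries. The 3 OVT73 libraries pooled nuclei of 2 transgenic sheep each. Of the 4 control libraries, controls 1 and 2 held nuclei of a single wild-type sheep and controls 3 and 4 pooled nuclei of 2. OVT73 is a transgenic sheep model of Huntington's disease that carries a full-length human HTT cDNA with an expanded polyglutamine tract, driven by a short stretch of upstream human HTT sequence, and the controls are age-matched wild-type animals. Nuclei came from frozen tissue, and the myelin layer was removed in a density gradient. The nuclei of pooled sheep were not separated here, so the library is the replicate.

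Oligodendrocytes wrap axons in myelin, a compact and lipid-rich membrane sheath that speeds conduction and supports the axon. They arise from oligodendrocyte precursor cells (OPCs), which switch on sheath proteins, the enzymes that build galactolipids and a set of transcription factors as they mature. MOG, MOBP and CLDN11 are proteins of the sheath: MOG lies on its outer surface, MOBP in the compact layers, and CLDN11 forms the tight junctions between its layers. OPALIN is a membrane glycoprotein of oligodendrocytes, UGT8 makes galactosylceramide, the main glycolipid of myelin, ERMN is a cytoskeletal protein of the late-maturing cell, and ST18 is a zinc finger transcription factor.

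The libraries held 20887378 to 70473426 unique molecular identifiers (UMIs), OVT73 library 1 being the deepest, and 32599 of 35272 barcodes were kept. Of 35113 barcode sequences, 159 occurred in more than 1 library. The kept nuclei fell into 25 clusters. Markers that excluded the 7 genes named 16 of them, which gave 7 classes: 15046 oligodendrocyte-like nuclei, 5728 like medium spiny neurons (MSN-like), 2938 OPC-like, 2331 astrocyte-like, 2767 microglia-like, 446 interneuron-like and 1248 neuroblast-like. None of the 16 oligodendrocyte markers was at 0 in the oligodendrocyte-like nuclei of any library, nor in the MSN-like or OPC-like nuclei. These markers helped to name the classes, so their presence is no test of the names. A second HTT feature, which bears the symbol in place of a sheep identifier and whose origin is not given in the sources used here, had 321, 61 and 25 UMIs in OVT73 libraries 1 to 3, against 1 to 6 in a control library. In oligodendrocyte-like nuclei alone it had 2 to 15 UMIs in an OVT73 library and at most 2 in a control library.

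MOG, MOBP, CLDN11 and OPALIN were far higher in oligodendrocyte-like nuclei than in any other class. Oligodendrocyte-like nuclei made up 46.2% of the kept nuclei and held 14.5% of all UMIs, but 83.2% of the UMIs of MOG, 88.2% of those of MOBP, 86.6% of those of CLDN11 and 88.0% of those of OPALIN. The level of MOG there, in UMIs per 1000000 UMIs of the class (CPM), was 1009 ± 299 (SD, n = 7 libraries, both groups), and the next class, the astrocyte-like nuclei, stood at 93.3 ± 92.3. MOBP had 1528 ± 253 CPM against 138 ± 141, CLDN11 179 ± 14.9 against 15.0 ± 13.7, and OPALIN 1960 ± 280 against 180 ± 174. For all 4 genes the oligodendrocyte-like and astrocyte-like ranges did not overlap. Below the astrocyte-like nuclei, classes next to each other in the order of means overlapped within 1 SD for each of the 4 genes. Classes further apart could differ. OPALIN had 68.9 ± 11.4 CPM in interneuron-like nuclei (59.0 to 86.1 by library) and 13.1 ± 8.44 in MSN-like nuclei (5.62 to 30.5), without overlap. Once each nucleus was thinned to 1000 UMIs, to set depths equal, 80.5% of oligodendrocyte-like nuclei held a UMI of OPALIN and 0.79% of microglia-like nuclei did, at median depths of 1765 and 1405 UMIs before thinning, when the shares were 91.3% and 1.08%. Thinning left out 501 OVT73 and 1218 control oligodendrocyte-like nuclei that were shallower. In microglia-like nuclei control library 3 supplied 39 of the 57 OPALIN UMIs, and its thinned share was 6.26%, against 0% to 0.59% in the other 6 libraries.

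**Figure D1:**
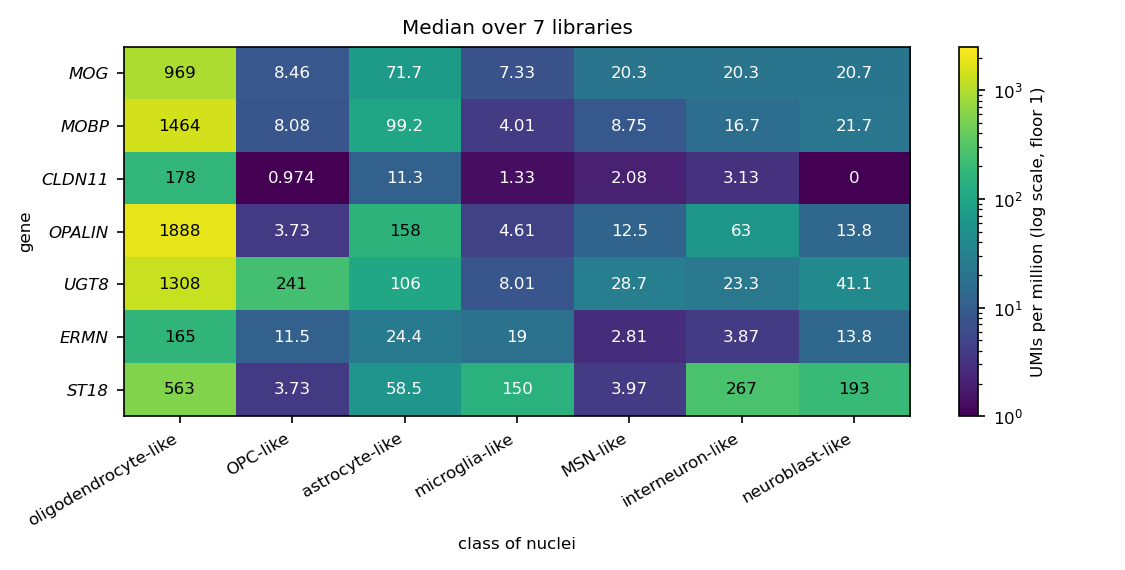
Level of each gene (rows) in each class of nuclei (columns), as the median over 7 libraries in CPM on a logarithmic colour scale. The oligodendrocyte-like column is the highest for all 7 genes. ST18 also reaches 267 in interneuron-like, 193 in neuroblast-like and 150 in microglia-like nuclei, and UGT8 reaches 241 in OPC-like nuclei.

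UGT8, ERMN and ST18 were also highest in oligodendrocyte-like nuclei, and UGT8 and ST18 were each found at a marked level in at least 1 other class. UGT8 stood at 1259 ± 122 CPM in oligodendrocyte-like nuclei (SD, n = 7 libraries) and at 235 ± 23.1 CPM in OPC-like nuclei, with 198 to 270 CPM in the 7 libraries. The UGT8 level in OPC-like nuclei was 18.7% of that in oligodendrocyte-like nuclei. MOG, MOBP, CLDN11, OPALIN and ST18 were 94.6 to 171 times lower in OPC-like than in oligodendrocyte-like nuclei. ERMN lay between, 13.6 times lower, on 154 UMIs. These folds are of UMIs pooled over libraries, and the OPC-like levels varied widely by library. OPALIN there ran from 0.761 to 68.6 CPM, and ERMN from 1.52 to 41.4 CPM. OVT73 library 1 and control library 3 supplied 60 and 58 of the 157 OPALIN UMIs in OPC-like nuclei. In thinned nuclei, 20.3% of OPC-like nuclei held a UMI of UGT8, and 1.04% of microglia-like nuclei did (50.7% and 1.41% before thinning, at median depths of 3582 and 1405 UMIs). Control library 3 supplied 32 of the 62 UGT8 UMIs in microglia-like nuclei, at 88.3 CPM, and the other 6 libraries had at most 11.52.

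ST18 was found in several classes, including one of neurons. Its oligodendrocyte-like nuclei had 574 ± 117 CPM, its interneuron-like nuclei 276 ± 28.7, its neuroblast-like nuclei 222 ± 94.6 and its microglia-like nuclei 140 ± 35.6 (SD, n = 7 libraries each). The MSN-like nuclei had 4.71 ± 3.19 CPM and the OPC-like nuclei 4.64 ± 4.95. The oligodendrocyte-like level was above the interneuron-like one in 7 of 7 libraries without overlap of their ranges, while interneuron-like, neuroblast-like and microglia-like levels overlapped within 1 SD from one to the next. Of the ST18 UMIs, 76.4% lay in oligodendrocyte-like nuclei, and 8.41% lay in interneuron-like nuclei, which held 3.32% of all UMIs.

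Between the clusters of interneuron-like nuclei, ST18 was uneven. NXPH1 was the first of the leading genes in both clusters. The larger cluster (339 nuclei), led also by GRIA4 and KIT, had 382 CPM of ST18 (332 to 450 over the 7 libraries), and 95.3% of its nuclei held a UMI. The smaller one (107 nuclei), led by NOS1 and NPY, genes of nitrergic interneurons, had 6.20 CPM (at most 15.9) and a UMI in 7.48% of nuclei, at a similar median depth of 15798 against 14323 UMIs. OPALIN went the same way, with 79.7 CPM in the larger and 29.4 CPM in the smaller cluster, and their ranges over libraries, 65.0 to 118 and 6.26 to 73.1 CPM, overlapped. MOG did not, at 17.3 and 28.4 CPM. Cluster 14 (379 nuclei) was left unnamed, with as many leading markers of neuroblasts as of interneurons. It had 23.1 CPM of ST18, with a UMI in 14.2% of nuclei, so the interneuron-like level depends on which clusters were named. The clusters were drawn from other genes of the same nuclei, so these values are a description.

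The lowest mean levels of ERMN were those of the MSN-like and interneuron-like nuclei, and neighbouring classes below the oligodendrocyte-like one overlapped within 1 SD. Its level was 178 ± 63.2 CPM in oligodendrocyte-like nuclei, 46.3 ± 65.9 in neuroblast-like, 27.1 ± 18.1 in microglia-like, 26.1 ± 19.7 in astrocyte-like, 14.2 ± 12.9 in OPC-like, 4.16 ± 2.24 in interneuron-like and 3.54 ± 1.97 in MSN-like nuclei (SD, n = 7 libraries). The oligodendrocyte-like level was above the neuroblast-like one in 7 of 7 libraries, though the ranges over libraries overlapped. The neuroblast-like mean was carried by control library 3 at 191 CPM, with 6.86 to 52.2 in the other 6 libraries and a median of 13.8, below the medians of 19.0 in microglia-like and 24.4 in astrocyte-like nuclei. As a share of its own oligodendrocyte-like level ERMN reached 15.3% in microglia-like nuclei, where MOG, MOBP, CLDN11, OPALIN and UGT8 had 0.703% to 1.57% of theirs. The microglia-like values rest on 113 UMIs in all.

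The make-up of the 7 genes' UMIs differed between classes. In oligodendrocyte-like nuclei ST18 supplied 8.81% of the 7 genes' UMIs and UGT8 19.2%. ST18 supplied 66.5% in interneuron-like, 62.7% in microglia-like and 61.9% in neuroblast-like nuclei, and was above its oligodendrocyte-like share in 7 of 7 libraries in each. UGT8 supplied 82.5% in OPC-like nuclei, from 55.7% to 94.9% by library. In MSN-like nuclei, which summed to only 83.5 CPM over the 7 genes against 6629 in oligodendrocyte-like nuclei, MOG supplied 25.0% against 14.3% and UGT8 36.8% against 19.2%, both above their oligodendrocyte-like share in 7 of 7 libraries. MSN-like cluster 11 (826 nuclei, a median of 1249 UMIs) stood apart from the 2 largest MSN-like clusters (medians of 22676 and 23142 UMIs), with 114 CPM of OPALIN against 9.13 and 12.8, and 62.5 CPM of MOG against 19.8 and 21.2.

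In astrocyte-like nuclei the make-up was close to that of oligodendrocyte-like nuclei. OPALIN supplied 28.1% of the 7 genes' UMIs against 28.9%, MOBP 22.8% against 23.5%, UGT8 18.1% against 19.2% and MOG 14.2% against 14.3%. All 7 genes stood at 9.66% to 15.8% of their oligodendrocyte-like level, and the UMIs were held by few nuclei: 76.5% of astrocyte-like nuclei had none of the 7 genes, and 10.0% had 4 or more of them. One library carried much of the signal. MOG had 290 CPM in the astrocyte-like nuclei of control library 3, 94.0 in control 4, 15.8 and 25.0 in controls 1 and 2, and 71.7, 56.4 and 101 in OVT73 libraries 1 to 3. The 16 oligodendrocyte markers, of which none is one of the 7 genes, summed to 11769 CPM in the astrocyte-like nuclei of control library 3 and to 2792 to 6104 CPM in those of the other 6 libraries. The part of oligodendrocyte RNA in these values was not tested.

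**Figure D2:**
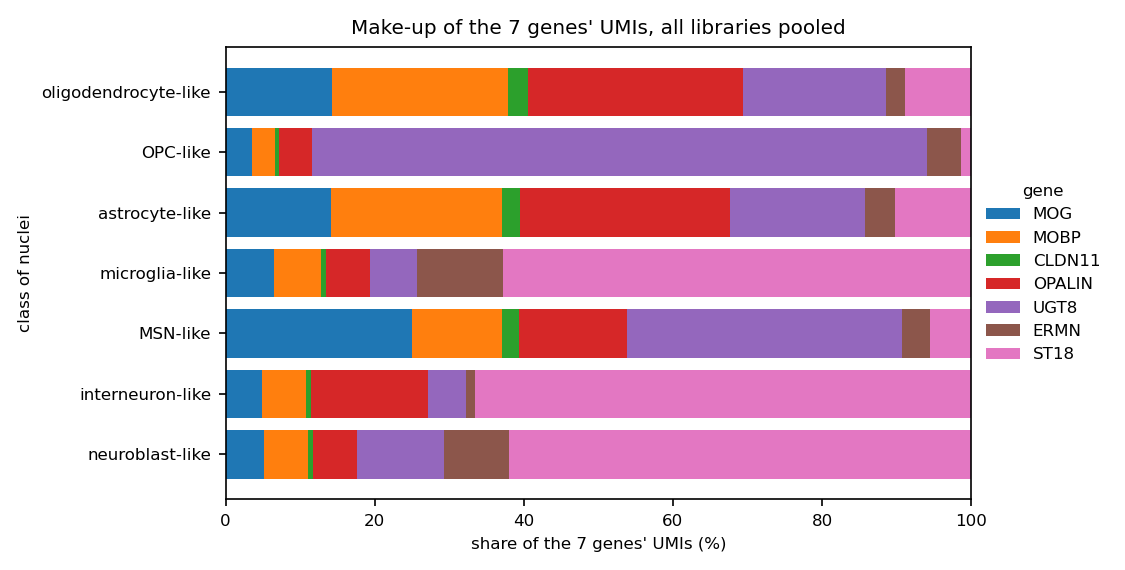
Share of the 7 genes' summed UMIs that came from each gene (coloured segments, percent), for each class of nuclei with all libraries pooled. The astrocyte-like bar resembles the oligodendrocyte-like bar, UGT8 fills 82.5% of the OPC-like bar, and ST18 fills 61.9% to 66.5% of the microglia-like, interneuron-like and neuroblast-like bars.

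Whether the transgene went with a change in these genes was asked first within oligodendrocyte-like nuclei, with the UMIs of each library summed and levels given as CPM normalised for composition. None of the 7 genes passed the test: edgeR's quasi-likelihood test gave adjusted p of 0.875 to 0.970. The groups overlapped for all 7, where 3.2% of all genes tested lay lower and 3.46% higher in OVT73 without overlap. For 5 of 7 the fold change was below 1, where 46.8% of all genes tested had a fold above 1. Across the 10506 genes tested 0% passed an adjusted p of 0.05, 5.27% had an unadjusted p under 0.05 (554 genes, none of the 7 among them), and DESeq2 called 4 genes: AHSG, CPT2 and BRDT lower and CADM1 higher, named after their values were seen.

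Of the sheath proteins, MOG had 785, 809 and 1033 normalised CPM in OVT73 libraries 1 to 3 and 1623, 1085, 907 and 844 in controls 1 to 4. Control library 1 stood above the rest, and the other 3 controls lay within or just above the OVT73 range. The log2 fold change of MOG was −0.35 ± 0.22 (SE, 3 OVT73 and 4 control libraries), a fold of 0.786 with a 95% interval of 0.553 to 1.12. With single libraries left out it ran from −0.48 (without OVT73 library 3) to −0.11 (without control 1), and without both single-sheep controls the log2 fold change of MOG was 0.0073.

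MOBP had 1716, 2076 and 1252 normalised CPM in the OVT73 libraries and 1460, 1284, 1599 and 1389 in the controls. OVT73 libraries held both the highest and the lowest value. The log2 fold change of MOBP was 0.23 ± 0.16 (SE), with an interval in fold of 0.920 to 1.497. It was 0.053 without OVT73 library 2 and 0.41 without OVT73 library 3.

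CLDN11 was the steadiest of the sheath genes, with 164, 204 and 166 normalised CPM in OVT73 and 198, 173, 167 and 193 in the controls. Both groups covered nearly the same range, and the fold of 0.975 had a 95% interval of 0.818 to 1.16.

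OPALIN had 1843, 1674 and 2103 normalised CPM in OVT73 and 2441, 1915, 1920 and 1858 in the controls. Control library 1 was again the highest, and the other 3 controls lay inside the OVT73 range. The fold for OPALIN was 0.921 with an interval of 0.756 to 1.12, a log2 fold change of −0.12, which was −0.014 without control library 1, −0.041 without OVT73 library 2 and −0.21 without OVT73 library 3.

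For UGT8, the galactosylceramide-making enzyme, the OVT73 libraries had 1328, 1475 and 1094 normalised CPM and the controls 1351, 1415, 1117 and 1102. The groups ran over the same range, with a fold of 1.04 and an interval of 0.847 to 1.28, and a log2 fold change of −0.01 without composition factors.

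ERMN, the cytoskeletal protein, had 167, 149 and 145 normalised CPM in OVT73 and 206, 120, 286 and 164 in the controls. The OVT73 values lay close together while the controls spread on both sides of them, from 120 in control 2 to 286 in control 3. The log2 fold change of ERMN was −0.33 ± 0.26 (SE), and it was −0.082 without control 3 and −0.51 without control 2.

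ST18, the transcription factor, had 656, 430 and 503 normalised CPM in OVT73 and 761, 637, 527 and 512 in the controls. OVT73 library 1 lay above 3 of the controls, and the other 2 OVT73 libraries lay below all 4. The log2 fold change of ST18 was −0.20 ± 0.18 (SE). With single libraries left out it ran from −0.37 (without OVT73 library 1) to −0.068 (without OVT73 library 2), with −0.072 without control library 1, and without both single-sheep controls it was 0.03.

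**Figure D3:**
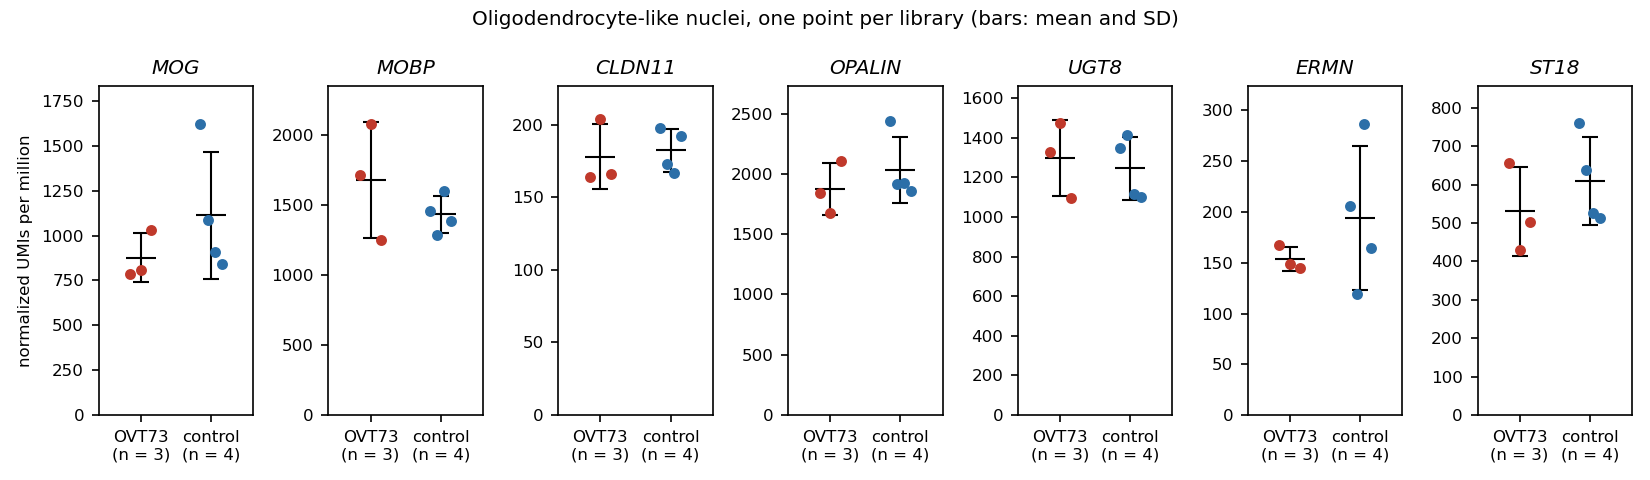
Normalised CPM of each gene in oligodendrocyte-like nuclei, one point per library (red: 3 OVT73, blue: 4 control), with mean and SD as bars. The groups overlap for each gene. Control library 1 is the highest point for MOG, OPALIN and ST18, and control library 3 for ERMN.

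The share of oligodendrocyte-like nuclei with a UMI gave the same picture at an equal depth of 1000 UMIs. MOG was found in 56.6% ± 7.05 of OVT73 nuclei and 65.2% ± 9.78 of control nuclei (SD, 3 and 4 libraries), MOBP in 72.2% ± 8.80 and 68.7% ± 3.73, and ST18 in 35.03% ± 6.20 and 40.4% ± 4.57. Without thinning these shares were 77.2% and 79.7% for MOG, 85.5% and 79.1% for MOBP, and 52.2% and 54.1% for ST18. No gene of the 7 passed an exact two-sided permutation test over libraries, with p of 0.257 to 0.886, where the smallest possible p is 0.0286. Neither did the ratio of the level in oligodendrocyte-like nuclei to that in all other named classes, with exact permutation p of 0.514 to 0.943 and log2 differences from −0.32 (ST18) to 0.31 (OPALIN).

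When the UMIs of all kept nuclei were summed, as in a bulk sample, all 7 genes had a lower mean in OVT73, where 44.1% of all genes tested had a fold above 1. In such sums fewer cells of a type and less RNA per cell cannot be told apart. MOG had 144, 105 and 152 normalised CPM in OVT73 and 242, 274, 213 and 144 in the controls, so that control library 4 lay inside the OVT73 range, and its log2 fold change was −0.70 ± 0.21 (SE). OPALIN had 316, 189 and 291 in OVT73 and 351, 473, 426 and 296 in the controls, with control library 4 again inside the OVT73 range, and a log2 fold change of −0.54 ± 0.20, which was −0.34 without OVT73 library 2. CLDN11 had 29.5, 23.5 and 22.9 in OVT73 and 29.2, 41.9, 37.1 and 31.0 in the controls, so that OVT73 library 1 lay among the controls, and a log2 fold change of −0.46 ± 0.16. OVT73 library 1 lay among the controls for ERMN too, whose log2 fold change was −0.68 ± 0.30, and −0.33 without control library 3. These 4 genes had an unadjusted p under 0.05, as did 5.44% of the 16055 genes tested, but all 7 had an adjusted p of 0.825 or more in edgeR's quasi-likelihood test, and the groups overlapped for all 7 (3.3% of all genes lay lower and 3.09% higher in OVT73 without overlap). The genes with an unadjusted p under 0.05 numbered 1 without OVT73 library 2, 2 without OVT73 library 3 or control library 3, and 3 to 5 without any other library, and all 7 log2 fold changes were below 0 in each of these fits. The median log2 fold change over the 7 genes was −0.46, beside −0.03 over all genes tested. No gene passed an adjusted p of 0.05 by edgeR (0% of those tested, with 874 at an unadjusted p under 0.05), and DESeq2 called 17 genes, none of the 7 among them.

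The share of nuclei that were oligodendrocyte-like moved with this result. It was 45.0%, 39.1% and 39.6% in OVT73 libraries 1 to 3 and 47.6%, 54.5%, 54.2% and 46.8% in controls 1 to 4. All OVT73 libraries lay below all controls, with an exact permutation p of 0.0286, the smallest that 3 against 4 libraries can give, and 0.1 after adjustment over the 7 classes. The astrocyte-like share also did not overlap, at 8.86% ± 1.24 in OVT73 and 5.23% ± 1.34 in the controls (SD), higher in OVT73 with the same exact permutation p and adjusted value. The oligodendrocyte-like share of UMIs, which enters the sums directly, was 12.4% ± 2.35 and 17.2% ± 4.36 (SD), and its groups overlapped. The part of this share in the lower sums was not tested. Within oligodendrocyte-like nuclei the median log2 fold change over the 7 genes was −0.12, beside −0.02 over all genes tested there. That median was −0.014 without control library 1 and −0.068 without OVT73 library 2, and without both single-sheep controls it was 0.0073, with 4 of the 7 genes above 0.

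**Figure D4:**
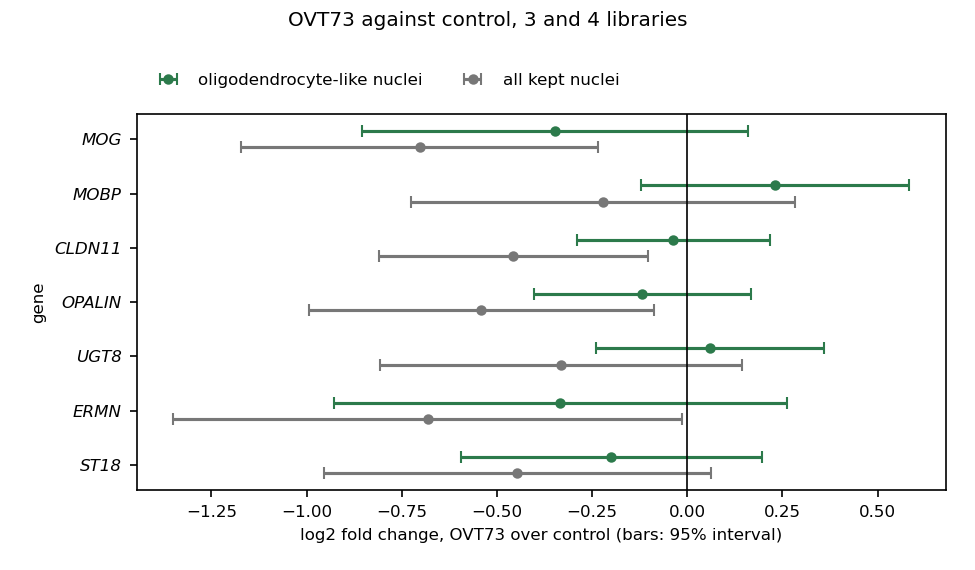
Log2 fold change of each gene, OVT73 over control, in oligodendrocyte-like nuclei (green) and in the sum of all kept nuclei (grey), with 95% intervals from the fit. All 7 grey points lie below 0, from −0.70 for MOG to −0.22 for MOBP, and 4 of their intervals do not reach 0. All 7 green intervals span 0.

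Outside oligodendrocyte-like nuclei, no gene of the 7 passed an adjusted p of 0.05 in any class (edgeR's quasi-likelihood test), and across all genes 1 passed in OPC-like nuclei, CPT2, 0.011% of those tested and named after its value was seen, and 0% in the other 5 classes. The filter on low counts left 7 of the 7 genes in MSN-like and astrocyte-like nuclei, 5 in OPC-like and interneuron-like nuclei and 2 in microglia-like and neuroblast-like nuclei. None had an unadjusted p under 0.05 in MSN-like, OPC-like, astrocyte-like or microglia-like nuclei, where 4.11%, 6.72%, 4.23% and 4.17% of all genes did. UGT8 in OPC-like nuclei had 251, 293 and 225 normalised CPM in OVT73 and 195, 235, 227 and 248 in the controls. These values overlapped, with a fold of 1.14 and a 95% interval of 0.947 to 1.36.

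In interneuron-like nuclei ST18 had 311, 318 and 268 normalised CPM in OVT73 and 264, 328, 256 and 240 in the controls. The groups overlapped, with a fold of 1.102 and an interval of 0.896 to 1.35. MOG there had 16.7, 14.9 and 18.1 against 21.6, 21.1, 34.7 and 30.9 normalised CPM, and UGT8 had 21.2, 18.7 and 14.1 against 23.0, 27.6, 27.1 and 32.1. OVT73 lay below the controls without overlap for both, as for 2.15% of the 8121 genes tested, and both had an adjusted p of 0.992 in edgeR's test. They were the 2 of 5 genes with an unadjusted p under 0.05 there, as for 3.64% of all genes. That number was 0 without OVT73 library 2, control 3 or control 4, and 1 without OVT73 library 3 or control 2. These values rest on 146 UMIs of MOG and 156 of UGT8 in 446 nuclei.

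ST18 in microglia-like nuclei had 162, 158 and 155 normalised CPM in OVT73 and 163, 107, 85.2 and 198 in the controls, and the OVT73 values lay within the control range. In neuroblast-like nuclei ST18 had 214, 451 and 290 in OVT73 and 205, 122, 232 and 200 in the controls. OVT73 library 1 fell between the controls and the other 2 above them, and the log2 fold change was 0.71 ± 0.29 (SE), with an adjusted p of 0.999 by edgeR. UGT8 had 35.3, 45.9 and 17.9 in OVT73 and 22.8, 243, 108 and 52.4 in the controls, which overlapped. Both had an unadjusted p under 0.05, as for 4.41% of all genes there. The log2 fold change of ST18 was 0.38 without OVT73 library 2, and its unadjusted p was above 0.05 in edgeR's fit without that library or without control 2. UGT8 kept an unadjusted p under 0.05 in 1 of the 4 fits with a library left out in which it was tested. In a neuroblast-like library ST18 had 9 to 121 UMIs and UGT8 3 to 20. In astrocyte-like nuclei the log2 fold change was below 0 for all 7 genes, with a median of −0.39, where 47.2% of all genes had one above 0. Once control library 3 was left out it was above 0 for all 7, with a median of 0.72.

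The 4 oligodendrocyte-like clusters differed in MOBP and OPALIN in opposite directions. Cluster 5 (2312 nuclei) was led by ENPP6, a gene of newly formed oligodendrocytes, MOBP itself and SLC5A11, a gene of mature oligodendrocytes. With the 7 genes put among the variable genes, separate clusters were led by MMRN1 and ENPP6 (871 nuclei) and by SLC5A11 and MOBP (2433 nuclei). The maturity of cluster 5 was not tested. It had 2469 CPM of MOBP against 1316 to 1431 in clusters 0, 1 and 7, and was the highest of the 4 in 7 of 7 libraries. OPALIN had 872 CPM in cluster 5 and 1905 to 2461 in the others, and cluster 5 was the lowest in 7 of 7 libraries. ST18 had 734 CPM in cluster 5 against 504 to 625, the highest of the 4 in 6 of 7 libraries. UGT8 hardly varied, with 1198 to 1326 CPM over the 4 clusters. Cluster 1 (3301 nuclei), the shallowest with a median of 1066 UMIs, had the most OPALIN in 7 of 7 libraries, the most CLDN11 in 6 and the most ERMN in 6. Cluster 7, the deepest at 3699 UMIs, had the least MOG in 7 of 7 libraries.

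Cluster 5 held 17.7%, 9.31% and 12.6% of the oligodendrocyte-like nuclei in OVT73 libraries 1 to 3 and 10.0%, 16.5%, 21.6% and 15.2% in controls 1 to 4, and these shares overlapped. Within it MOBP had 2535 ± 297 CPM in OVT73 and 2323 ± 305 in the controls (SD, 3 and 4 libraries), and OPALIN 915 ± 148 and 949 ± 237. The differences between groups within the cluster were smaller than the SD of either gene. The clusters were built from other genes of these nuclei, so the values are a description with no test.

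**Figure D5:**
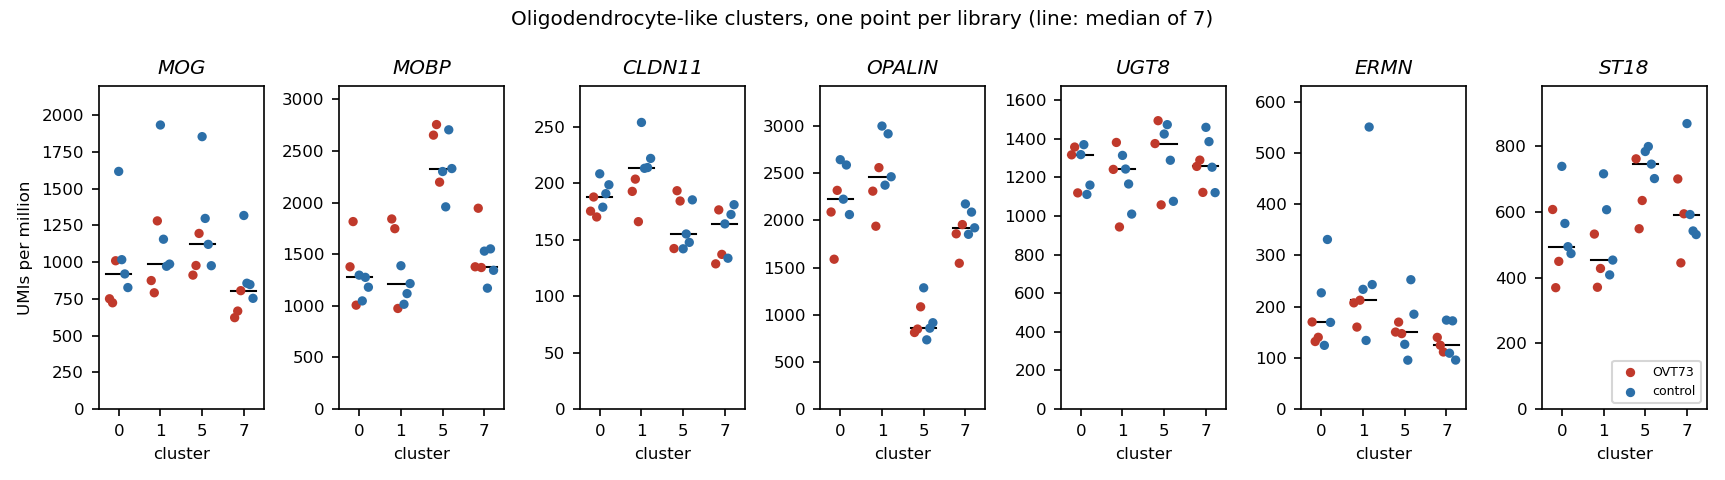
CPM of each gene in the 4 oligodendrocyte-like clusters (0, 1, 5 and 7), one point per library (red: OVT73, blue: control), with the median of 7 libraries as a line. In cluster 5 MOBP is highest and OPALIN lowest in 7 of 7 libraries, and the groups overlap there for both of these genes.

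Over 49 sums of a class in a library, log2 levels of genes outside the 7 were set beside those of each of the 7. The closest were, in order, ARHGAP23, RNF220 and PEX5L for MOG (Pearson r of 0.928 to 0.925). For MOBP they were SLC5A11, RNF220 and the unnamed gene ENSOARG00020024101 (0.925 to 0.917). They were EFHD1, SLCO1A2 and ARHGAP23 for CLDN11 (0.923 to 0.916) and PEX5L, TTYH2 and TMEM26 for OPALIN (0.951 to 0.934). UGT8 was closest to PTPRK, CREB5 and NEO1 (0.966 to 0.911), and ERMN to the unnamed gene ENSOARG00020001109, SPP1 and PPP1R14A (0.896 to 0.873). ST18 had the loosest neighbours, NECTIN1, FRYL and C21orf91 (0.863 to 0.792). Among the 7 themselves, r ran from 0.103 (UGT8 with ST18) to 0.927 (MOBP with OPALIN). The latter was above the r of each gene named for MOBP. The points share libraries and classes, so r describes likeness of pattern only, and RNF220, PEX5L and SLC5A11 were among the markers that named the classes.

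Other genes of the lineage were described in oligodendrocyte-like nuclei by 6 lists, none of which holds any of the 7 genes. MAG, ANLN, TF, SLC5A11, PCDH15 and LUZP2 also served as class markers. So did other genes of the sheath protein, mature and precursor lists, including most of the precursor list. No listed gene passed an adjusted p of 0.05, and edgeR's adjusted p was 0.874 or more for each gene named here. Of 13 tested myelin sheath protein genes, 10 had a lower and 3 a higher log2 fold change, with a median of −0.25. An unadjusted p under 0.05 was found for 4 of the 13, all lower, where 5.27% of all genes tested had one, and MAG, GJB1 and CD9, named after their values were seen, were among them. In the same list ANLN had 1068 ± 165 normalised CPM in OVT73 and 995 ± 78.0 in the controls (SD).

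Of 15 genes of mature oligodendrocytes, 10 were lower and 5 higher, with a median of −0.18, and the smallest p belonged to TF, which encodes transferrin and is made by mature oligodendrocytes, at 893 ± 7.97 in OVT73 and 1046 ± 78.5 in the controls (SD) without overlap, as for 3.2% of all genes tested, and on the higher side to SLC5A11 at 1181 ± 183 and 1007 ± 33.1. The 15 galactolipid and sphingolipid enzyme genes, which work beside UGT8, split into 8 lower and 7 higher with a median of −0.13. SGMS1, a sphingomyelin synthase, had 65.0 ± 3.02 and 82.5 ± 14.6, without overlap, and ASAH1, the acid ceramidase, 67.4 ± 2.94 and 60.7 ± 4.46.

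Of 10 tested genes in the transcription factor list, 8 were higher and 2 lower, with a median of 0.11. HIPK2, a kinase listed with them, had 1540 ± 246 normalised CPM in OVT73 and 1255 ± 87.0 in the controls (SD), and ZBTB16 1167 ± 214 and 1239 ± 123. Among 5 tested genes of committed and newly formed oligodendrocytes 2 were higher. ITPR2, an intracellular calcium channel, had 874, 949 and 787 in OVT73 and 693, 708, 679 and 768 in the controls, without overlap, as for 3.46% of all genes tested. ENPP6 had 65.0 ± 22.8 and 115 ± 36.9. The 8 tested precursor genes split into 4 and 4. LUZP2 had 60.3 ± 17.9 and 29.96 ± 15.1, without overlap, though OVT73 library 1 at 49.85 barely cleared control library 4 at 49.73. PCDH15 had 10.6 ± 2.50 and 48.9 ± 43.9, with 101 and 70.1 in controls 1 and 2. Controls 3 and 4 had 14.3 and 10.6, beside 13.2, 10.3 and 8.19 in OVT73 libraries 1 to 3.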

How the data were processed

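Single-nucleus RNA sequencing libraries were made from frozen sheep striatum with a droplet 3′ kit after a density gradient that removed myelin. The authors aligned reads with Cell Ranger 7.0.0 and STAR 2.7.2a to Oar_rambouillet_v1.0 with the Ensembl annotation and deposited raw UMI counts per gene and barcode, 1 matrix per library. Groups follow the title codes of the labels, and no fit dropped or imputed a library in the values given as main.

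Nuclei with 200 to 7500 genes and at most 5% mitochondrial UMIs were kept, and the top 4% of scrublet scores in each library (1358 nuclei) were removed as doublets. The remaining steps were 3000 variable genes without the 7 genes, 30 components, Harmony-type correction by library, 20 neighbours and Louvain clustering (scanpy 1.11.5, igraph 0.11.9). The rule that turned marker lists into names was set after the marker profiles were seen. The class names, with 9 clusters (2095 nuclei) left unnamed, were rebuilt here. UMI counts were summed per class and library and tested with edgeR 4.0.16 (filterByExpr, TMM, quasi-likelihood, Benjamini-Hochberg) or DESeq2 1.42.0 as an alternative, and single values by exact permutation of libraries. The script was tested on simulated data. Ratios had 0.5 UMI added, and shares were thinned to 1000 UMIs, as the mean over all draws.

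The genes named were the 7 and, from each list, the gene with the smallest p in each direction. For each of the 7, the 3 genes outside the 7 most like it were named as well. So were genes past an adjusted p of 0.05 in oligodendrocyte-like nuclei. A gene that this rule names is not reported here. The members and lists were chosen with earlier results of these data known. MBP, MAL and BCAS1 of the lists, matched by symbol, were not analysed here. The labels do not say which sheep a pooled nucleus came from. The p-values set a difference between groups against the variation between libraries. A library holds 1 or 2 sheep, so that variation is not the one between single sheep. Intervals cover 3 and 4 libraries.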

Additional observations from a re-analysis of the deposited data

Results flagged for a closer look

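In 56 checks of the 4 control libraries, each on 1 gene in 1 class or measure, 4 had a library whose gap to the nearest of the others exceeded Dixon's limit. Chance gives about 1 in 20. ERMN in all kept nuclei had 64.9 normalised CPM in control library 3, beside 29.6 to 31.8 in the other controls. MOG in OPC-like nuclei had 28.9 in control library 3, beside 6.26 to 8.42. OPALIN in oligodendrocyte-like nuclei had 2441 in control library 1, beside 1858 to 1920. UGT8 in MSN-like nuclei had 47.6 in control library 2, beside 23.6 to 26.7.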

How the results depend on the processing

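Of 489 values under other settings, 444 were counted as the same. For single genes this meant the same direction and side of the threshold. For a count of genes it meant a similar number, and for a median a shift smaller than the SD between libraries. A median could thus change sign and still count as the same. In astrocyte-like nuclei it did, running from −0.76 to 0.72 with a library left out. Genes called in oligodendrocyte-like nuclei numbered 4 with DESeq2 and 1 with no filter on low counts, and 0 to 1 (AHSG, without control 1) with a library left out. All kept nuclei gave 17 with DESeq2. The other classes gave 2 without TMM factors and 0 to 3 with a library left out. Without TMM factors the median over all genes in all kept nuclei moved from −0.03 to −0.15, and that of the 7 genes from −0.46 to −0.57. With a library left out, the median of the 7 genes ranged from −0.85 to 0.056 in MSN-like nuclei, and over the 5 tested from −0.73 to −0.17 in interneuron-like nuclei.

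In oligodendrocyte-like nuclei the log2 fold change turned to 0.0073 (MOG) and 0.033 (ST18) without both single-sheep controls and to −0.010 (UGT8) without TMM factors, and with a library left out it ranged from −0.14 to 0.035 for CLDN11 and from −0.039 to 0.17 for UGT8. The log2 ratio difference turned to 0.031 (MOG) and 0.16 (CLDN11) with doublets kept, and to 0.23 (CLDN11) and −0.056 (ERMN) with classes set by marker UMIs. With a library left out it ranged from −0.45 to 0.26 for MOG, −0.37 to 0.67 for MOBP, −0.57 to 0.45 for CLDN11, −0.11 to 0.77 for OPALIN and −0.13 to 0.35 for ERMN, lowest without control 3 and highest without control 1. The share difference, in percentage points, turned to 1.23 (CLDN11), 0.91 (OPALIN) and 3.65 (UGT8) without thinning and to 0.31 (UGT8) at 500 UMIs, and with a library left out ranged from −0.22 to 8.36 for MOBP, −4.06 to 0.25 for OPALIN and −2.10 to 2.36 for UGT8. The cause of these turns was not tested.

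No paired analysis was possible because the groups hold different sheep, in 3 and 4 libraries. With 3 and 4 libraries, the interval for MOG in oligodendrocyte-like nuclei spanned 0.553 to 1.12 in fold. It lies around the estimate for MOG alone, and changes of MOG within it were not excluded. It is not a limit of detection, and the smallest detectable change was not worked out. Doublet removal took the top 4% of scores, and scrublet's own threshold marked 635 nuclei. Class names were rebuilt here.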

Other observations

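Of the 9 unnamed clusters, 2 had more nuclei removed as doublets than kept, and carried the 7 genes at high levels. Cluster 13 was led by the precursor genes PCDH15 and SOX6 and by NXPH1, which also led the interneuron-like clusters. It kept 148 nuclei after 249 were removed, with 504 CPM of MOG, 1083 of OPALIN and 783 of UGT8. Cluster 15, led by the microglial genes CALCR, DOCK8 and FLI1, kept 136 nuclei after 217 were removed, with 520 CPM of MOG, 1073 of OPALIN and 708 of UGT8. Cluster 12, led by SCG2, SST and CRABP1, kept 491 nuclei after 2 were removed, with 314 CPM of MOG, 719 of OPALIN and 405 of UGT8. In cluster 20, led by CALCR, DOCK8 and RUNX1, 178 nuclei were kept after 53 were removed. It had 245 CPM of MOG, 433 of OPALIN and 285 of UGT8, each at 0 in its lowest library. The nuclei of these unnamed clusters entered no comparison of classes, and entered the sum of all kept nuclei.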
